A study of Mus musculus with 12 samples.

Results

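The genes described here are 35 genes that megakaryocytes and platelets are known for, examined in the open chromatin of mouse hematopoietic stem cells (HSCs). Accessible regions were assigned to a gene when their highest summit lay in the GENCODE mm10 gene body or within 10 kb of it. The 12 summit lists together gave 71006 regions, of which 178 belonged to the 35 genes, and 106 of these 178 were called often enough to be tested, among 37884 tested regions in all. Of the 178 regions, 36 lay within 1 kb of an annotated start of the gene itself (own promoters), 24 within 1 kb of a start of another gene, and 118 were distal.

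HSCs had been sorted from bone marrow of C57BL/6 mice as Lin-/cKit+/Sca1+/Flk2-/CD48-/CD150+ cells and profiled by ATAC-seq, in which a transposase cuts and tags accessible DNA. The 4 groups were WT mice aged 3 months (Young WT), Mlkl-/- mice aged 3 months (Young Mlkl-/-), WT mice aged 18 months (Aged WT) and Mlkl-/- mice aged 18 months (Aged Mlkl-/-), with 3 libraries per group. The Mlkl-/- mice lack MLKL, the effector of necroptosis, in every tissue, and the groups share no other allele or treatment. Each library came from pooled mice, more per pool at 3 months than at 18 months, all libraries were prepared on the same day, and the labels give no sex.

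Megakaryocytes shed platelets, which adhere to injured vessels through the von Willebrand factor receptor GPIb-IX-V, are activated through receptors for collagen, thrombin, ADP and thromboxane, and aggregate through the fibrinogen receptor integrin αIIbβ3. The transcription factors GATA1, RUNX1, FLI1 and NF-E2 are known to drive this program. HSCs share part of it with megakaryocytes, and a platelet-biased subset of HSCs is known by its expression of Vwf.

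The sequences below are 300-base windows centred on the summit, read from the plus strand of the RefSeq mm10 genome. The first pair are the regions that passed the test for age, and the other windows are promoters of 4 genes with roles in adhesion and granules. Capitals mark 4 motifs searched on both strands. For GATA factors these are AGATAA and also TGATAA, for ETS factors CGGAAG and also AGGAAG, for RUNX factors TGTGGT, and for the core shared by NF-E2 and AP-1 it is TGAGTCA. The Vwf upstream window lies at chr6:125540825-125541124, the P2ry12 intronic window at chr3:59260833-59261132, the Itga2b promoter at chr11:102470068-102470367, the Gp9 promoter at chr6:87777893-87778192, the Pf4 promoter at chr5:90772361-90772660 and the Vwf promoter at chr6:125552752-125553051.
Vwf upstream: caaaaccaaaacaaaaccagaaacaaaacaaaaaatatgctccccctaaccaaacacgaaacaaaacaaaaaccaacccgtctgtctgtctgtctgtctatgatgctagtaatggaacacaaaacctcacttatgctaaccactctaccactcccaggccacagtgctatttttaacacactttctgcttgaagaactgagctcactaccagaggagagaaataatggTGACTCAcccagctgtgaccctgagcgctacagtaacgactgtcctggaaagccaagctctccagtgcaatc
P2ry12 intron: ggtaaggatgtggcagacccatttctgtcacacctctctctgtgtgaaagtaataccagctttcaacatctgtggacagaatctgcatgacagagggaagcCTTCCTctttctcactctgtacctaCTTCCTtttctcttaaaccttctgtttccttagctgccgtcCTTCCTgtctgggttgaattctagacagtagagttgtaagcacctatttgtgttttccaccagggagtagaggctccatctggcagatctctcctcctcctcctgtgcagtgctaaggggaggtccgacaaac
Itga2b promoter: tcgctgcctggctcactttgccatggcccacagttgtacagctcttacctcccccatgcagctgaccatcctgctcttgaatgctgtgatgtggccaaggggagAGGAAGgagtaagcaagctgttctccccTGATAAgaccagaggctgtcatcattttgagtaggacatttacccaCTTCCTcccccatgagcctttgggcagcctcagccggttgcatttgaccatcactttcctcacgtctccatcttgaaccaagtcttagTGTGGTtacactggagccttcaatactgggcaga
Gp9 promoter: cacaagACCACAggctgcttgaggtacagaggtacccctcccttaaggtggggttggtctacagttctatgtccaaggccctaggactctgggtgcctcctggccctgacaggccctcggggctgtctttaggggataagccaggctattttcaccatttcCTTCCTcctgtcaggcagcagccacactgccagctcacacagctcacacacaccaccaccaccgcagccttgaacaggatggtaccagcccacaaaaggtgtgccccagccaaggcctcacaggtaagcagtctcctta
Pf4 promoter: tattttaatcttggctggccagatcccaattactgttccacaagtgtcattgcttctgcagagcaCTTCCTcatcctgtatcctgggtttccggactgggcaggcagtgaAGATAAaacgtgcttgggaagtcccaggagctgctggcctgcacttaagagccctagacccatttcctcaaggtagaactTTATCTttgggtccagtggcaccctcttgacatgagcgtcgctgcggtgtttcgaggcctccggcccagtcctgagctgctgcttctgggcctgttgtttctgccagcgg
Vwf promoter: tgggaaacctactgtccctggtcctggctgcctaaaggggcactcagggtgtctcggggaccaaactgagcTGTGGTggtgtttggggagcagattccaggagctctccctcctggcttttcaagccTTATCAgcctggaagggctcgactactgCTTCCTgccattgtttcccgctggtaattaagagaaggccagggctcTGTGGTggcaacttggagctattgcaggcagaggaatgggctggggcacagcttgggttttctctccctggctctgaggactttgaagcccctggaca

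The Vwf upstream window held 1 NF-E2 and AP-1 core and none of the other motifs, and the P2ry12 window held 3 ETS motifs. The Pf4 window held 2 GATA motifs and the Itga2b window 1, whereas the Gp9 window held none of the spelled GATA motifs. Over the 106 tested regions, a GATA motif occurred in 31.1%, compared with 19.2% of all 37884 tested regions. Among own promoters of the 35 genes the GATA share was 25.9%, compared with 7.72% of all tested promoter regions, and among distal regions it was 40.0%, compared with 25.8%. The RUNX motif was found in 38.7% of the genes' regions and 27.9% of all, the ETS motif in 67.9% and 59.0%, and the NF-E2 and AP-1 core in 8.49% and 9.97%. These shares are a description of letters in fixed windows, and a missing match says nothing about binding of the factor.

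After the limit on scores, the lists held between 35714 and 61495 summits with a score of at least 3, the score being the −log10 q-value of a summit against its own library. Aged lists were mostly longer, with 47032 to 61495 summits against 35714 to 56368 in young lists. For this reason each list was cut to its 35714 highest summits (equal-length lists), and a call means that 1 of those summits fell in the region. Levels are given as a percentile, the share of the regions called in a list that scored no higher, with 0 for a region not called. Read depth was not known from the lists. Promoters of 4 of 12 HSC marker genes were called in all 12 lists (33.3%), below the 42.2% of all protein-coding genes. Those of Slamf1, which encodes the sorting marker CD150, and Mecom were called in none. Promoters were called in all 12 lists for 1 of 10 erythroid and 0 of 11 granulocyte and monocyte marker genes. The same held for 1 of 8 B cell and 0 of 8 T cell marker genes.

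The promoters of the 35 genes ranged from strongly accessible in every list to not called in any. The own promoter was called in all 12 lists for 15 genes, or 42.9%, compared with 42.2% of all protein-coding genes. It was called in 1 to 11 lists for 14 genes and in none for the remaining 6, Gp1bb, Gp6, Ppbp, Treml1, Clec1b and P2ry12. The plot of promoter percentiles by library shows this range.

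**Figure D1:**
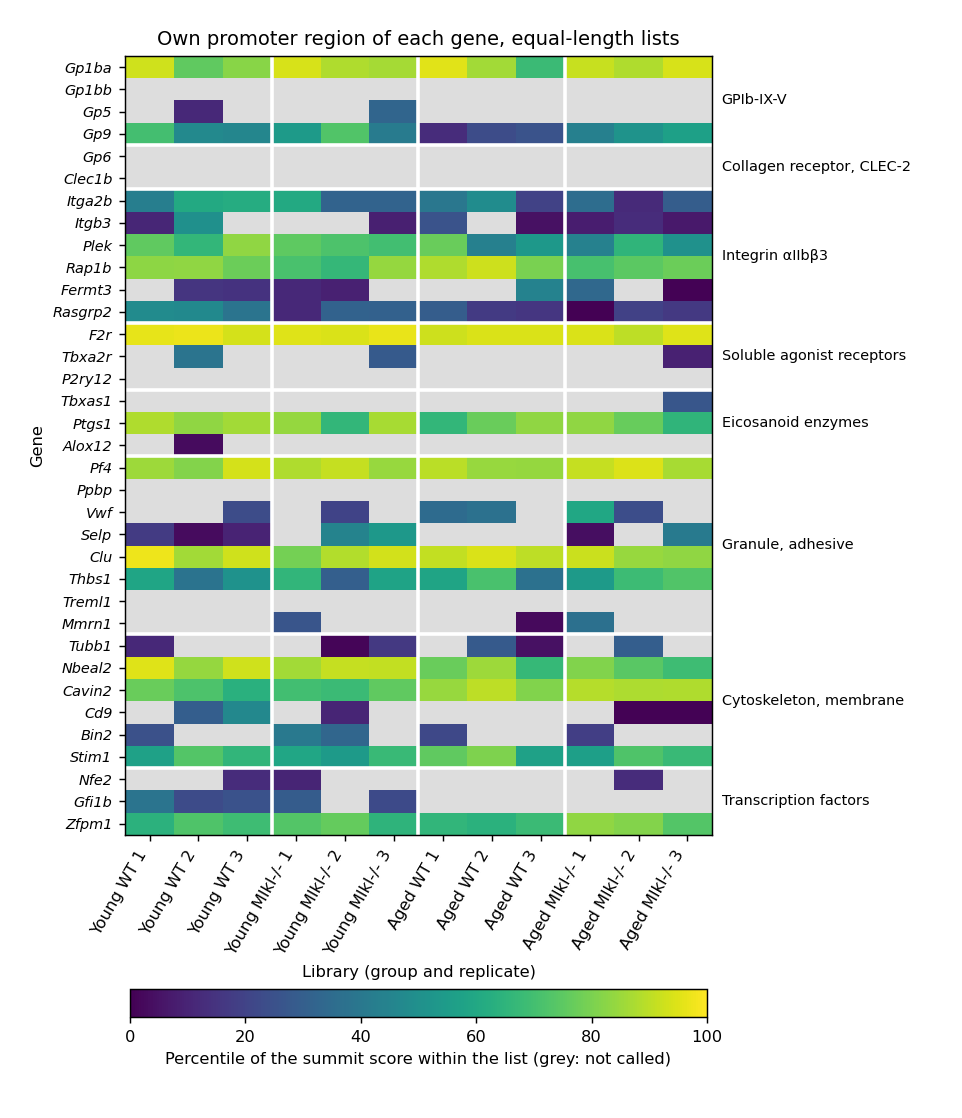
Percentile of the own promoter region (colour) for each of the 35 genes (rows, by role) in each of the 12 equal-length lists (columns). The F2r promoter stayed at 90.1 or above in every list, whereas 6 genes are grey throughout and the Gfi1b promoter is grey in all 6 aged lists.

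In the GPIb-IX-V complex, which tethers platelets to von Willebrand factor, the subunits differed. The promoter of Gp1ba, the ligand-binding subunit, was among the strongest, with a mean percentile of 86.9 and a range of 68.1 to 95.6 over the 12 lists. The Gp9 promoter was called in all 12 lists at lower and more variable percentiles. It stood at 70.0, 47.0 and 45.9 in Young WT, 54.5, 72.8 and 41.5 in Young Mlkl-/-, 12.8, 23.1 and 25.7 in Aged WT, and 43.6, 51.5 and 56.7 in Aged Mlkl-/-. The Aged WT lists were the lowest and did not overlap with the other groups. How many of all tested regions show such a separation was not counted. The age change over both genotypes missed the threshold (-0.29, SE 0.15, limma adjusted p = 0.248). It also takes in the Aged Mlkl-/- lists, which overlapped with the young ones. The Gp9 promoter did not pass for age in WT, genotype at 18 months or the difference in age change between genotypes either. Among all tested regions of the genes described here, the lowest limma adjusted p was 0.0399, 0.713 and 0.965 in that order. The Gp5 promoter was called in 2 equal-length lists, both young, and was present in 2 young and 2 aged uncut lists. A summit at the Gp1bb promoter appeared only in 2 uncut lists, both aged. Gp1bb shares its locus with Sept5, whose promoter region was called in all 12 lists.

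Neither Gp6 nor Clec1b had a called promoter. Gp6, the signalling receptor for collagen, had no region at all within 10 kb. Clec1b, which encodes the podoplanin receptor CLEC-2, had a pair of distal regions called in all 12 lists, both nearer to the start of the neighbouring Clec9a. The stronger of these, an intronic region 9.89 kb from the Clec1b start, stood at 60.7, 78.9 and 81.0 in Young WT and 78.9, 83.6 and 78.8 in Young Mlkl-/-. The Aged WT lists followed with 80.6, 74.6 and 81.7, and the Aged Mlkl-/- lists with 84.9, 97.1 and 90.4. The 3 Aged Mlkl-/- lists were above the 3 Aged WT lists, with a difference of 0.47 on the normal-score scale described below (SE 0.18, limma adjusted p = 0.870). This region is among those picked for a small p for genotype at 18 months. The share of all tested regions with such a separation was not counted.

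Integrin αIIbβ3 is encoded by Itga2b and Itgb3. The Itga2b promoter was called in all 12 lists at a mean percentile of 39.6, ranging from 11.9 to 62.1, and a second Itga2b region 2.77 kb inside the gene was higher at 65.8. The Itgb3 promoter was called in 8 lists with a mean percentile of 10.6. The genes that switch the integrin on were uneven too. Rap1b, a small GTPase of inside-out activation, had a mean promoter percentile of 79.1, Plek, a protein kinase C substrate of platelets, 64.7, Rasgrp2, the exchange factor for Rap1, 25.5 and Fermt3, the integrin-binding kindlin-3, 10.8. The Plek promoter also lies 42 bp upstream of a start of Cnrip1, so its accessibility cannot be assigned to 1 of these genes.

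Among receptors for soluble agonists, the F2r promoter, of the thrombin receptor PAR1, was the most accessible of the 35, with a mean percentile of 94.5 and a range of 90.1 to 97.2. The Tbxa2r promoter, of the thromboxane receptor, was called in 3 lists. P2ry12, the ADP receptor, had no called promoter but a strong intronic region 1.85 kb inside the gene, in which the gene Med12l also runs. Of the enzymes that make eicosanoids, Ptgs1, the cyclooxygenase of platelets, had a promoter at a mean percentile of 78.9 in all 12 lists. The promoters of Tbxas1 (thromboxane synthase) and Alox12 (12-lipoxygenase) were each called in 1 list, although 10 of the 19 regions of Tbxas1 were tested.

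Genes of granule and adhesive proteins spanned the whole range. The Clu promoter, of the chaperone clusterin, had a mean percentile of 89.3 and the Pf4 promoter, of the chemokine platelet factor 4, of 88.0, with a range of 81.3 to 94.9. The Pf4 region also lies within 10 kb of Ppbp, which encodes another platelet chemokine, and is the only tested region of Ppbp. The Thbs1 promoter, of thrombospondin-1, was called in all 12 lists at a mean of 55.4. The promoters of Selp (P-selectin), Vwf and Mmrn1 (multimerin-1) were called in 7, 6 and 3 lists. Treml1, a receptor of α-granules, had only 1 region, found in 2 uncut lists and in no equal-length list. An intronic region 20.3 kb inside Selp had the highest mean percentile of any distal region of the 35 genes, 95, with a range of 91.1 to 97.5.

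In the cytoskeletal and membrane group, the promoters of Nbeal2, needed for α-granule formation, Cavin2, a coat protein of caveolae, and Stim1, the calcium sensor of the endoplasmic reticulum, were called in all 12 lists with mean percentiles of 82.8, 78.9 and 65.7. Those of Tubb1 (β1-tubulin), Cd9 (a tetraspanin) and Bin2 (a membrane-bending adaptor) were called in 6, 5 and 5 lists. Of the transcription factors, Zfpm1, the GATA1 cofactor FOG1, had a promoter at 71.4 in all 12 lists, whereas the promoters of Gfi1b, a repressor of erythroid and megakaryocytic cells, and Nfe2, the p45 subunit of NF-E2, were called in 5 and 3 lists. Nfe2 had a much stronger region 3.12 kb upstream of the start used here, at a mean of 92.9, which lies 158 bp upstream of a start present only in the complete GENCODE annotation. The other strongest distal regions were intronic, at 11.3 kb inside Cavin2 (mean 92.9), 31.6 kb inside Plek (84.2) and 69.8 kb inside Stim1 (82.4), each called in all 12 lists. Of the 118 distal regions, 9 lay within 1 kb of such a start of their own gene.

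On average, more regions of the 35 genes were called in young than in aged equal-length lists. In the lists before they were cut (uncut lists, scores of at least 3), the order of the group means turned. Single uncut lists overlapped, with 86 to 139 regions in young and 107 to 129 in aged lists. In equal-length lists, 86, 93 and 90 regions were called in Young WT (89.7 ± 3.51, SD, n = 3) and 87, 96 and 86 in Young Mlkl-/- (89.7 ± 5.51, SD, n = 3). In the aged groups 80, 74 and 82 were called in WT (78.7 ± 4.16, SD, n = 3) and 83, 91 and 81 in Mlkl-/- (85.0 ± 5.29, SD, n = 3). The Aged WT lists thus lay below all 6 young lists, and the Aged Mlkl-/- lists overlapped with them. In the uncut lists, means were 102.7 ± 10.1, 113.0 ± 26.5, 118.3 ± 9.81 and 121.3 ± 8.62 regions in the same order of groups (SD, n = 3 each). As a share of all regions called, the genes' regions made up 0.308%, 0.303%, 0.267% and 0.281% of equal-length lists, and 0.295%, 0.299%, 0.268% and 0.270% of uncut lists, so the mean share was lower in both aged groups either way. List length moves with age, and its part in these counts was not tested.

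**Figure D2:**
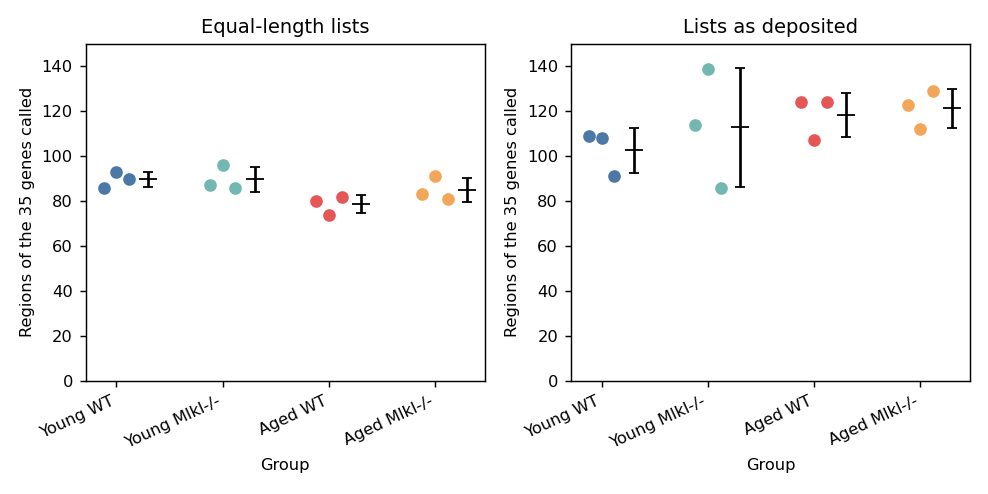
Number of regions of the 35 genes called in each library (points), with the group mean and SD beside them, in equal-length lists (left) and in the uncut lists (right). Aged WT lists hold 74 to 82 regions at equal length, under the 86 to 96 of the young lists. Uncut lists overlap, with 86 to 139 regions in young and 107 to 129 in aged lists.

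To compare groups, the ranks of all regions within a list were turned into normal scores, with all regions not called in a list sharing 1 low score, and tested with limma over all 37884 regions. The first question was what differed with age over both genotypes, and 2 of the 106 regions passed an adjusted p of 0.01 (1.89%), both lower at 18 months. Over all tested regions 2.71% passed, and 1.01% passed and were lower, so the count for the 35 genes was near that of regions in general. At an adjusted p of 0.05, 9 of the 106 passed (8.49%), compared with 7.74% of all regions. At an unadjusted p of 0.05, 16 did (15.1%), compared with 22.1%. The 6 young and 6 aged lists did not overlap for 4 regions (3.77%), compared with 3.88% of all. These 4 were the Vwf upstream region, lower in every aged list, and the Cavin2 promoter, a Tbxas1 intronic region and a Plek intronic region described below.

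The first region that passed lies between genes, 5.80 kb upstream of the most upstream Vwf start and 11.97 kb upstream of the next. Vwf encodes von Willebrand factor, the ligand of GPIb. The region stood at percentiles of 35.4, 42.5 and 37.2 in Young WT and 19.4, 6.58 and 29.9 in Young Mlkl-/-, and was called in none of the 6 aged lists. All 6 young lists were thus above the aged lists, with a change of -1.09 (SE 0.21, limma adjusted p = 0.00289). The region was tested through its young calls alone, and the separation follows from the pattern of calls. Its aged values are the shared low scores of regions not called, so they add little spread to the SE. The change was -1.21 in WT and -0.98 in Mlkl-/-, and the difference of these changes was 0.24 (limma adjusted p = 0.965). No adjusted p for this difference was lower in any region, and other regions share the value. In the uncut lists, weak summits were present in 3 aged lists with scores of 3.34, 3.65 and 7.33, compared with 6.72 to 11.3 in the 6 young lists. The call held without each library in turn and in the uncut lists (limma adjusted p = 0.00602). It was lost with scores of at least 5 (-0.86, limma adjusted p = 0.0250), with list length as a covariate (-1.0, limma adjusted p = 0.0736), with Y-gene summits as a covariate (-1.17, adjusted p = 0.0161) and in the 9 libraries whose list names share a tag (-1.13, adjusted p = 0.0162). Y-linked genes held summits in 3 of the young lists and in 0 of the 6 aged ones, and the part of list length, sex and the tag in this change was not tested. Of the bases within 250 bp of this summit, 36.3% are masked as repeats in the reference, compared with a median of 8.58% over all tested regions.

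None of the other Vwf regions passed, and the plot of the Vwf locus shows their levels. The Vwf promoter, at the start 6.17 kb downstream of the first, was called at 23.2 in 1 Young WT list and 20 in 1 Young Mlkl-/- list, at 35 and 37.5 in 2 Aged WT lists, and at 59.7 and 23.5 in 2 Aged Mlkl-/- lists. The groups overlapped, and the age change was 0.47 (SE 0.32, limma adjusted p = 0.420). In the uncut lists the same promoter was present in 2 of 6 young and 6 of 6 aged lists, with a change of 0.71 (SE 0.28, limma adjusted p = 0.105). An intronic region 20.4 kb from the nearest start was called in all 12 lists at a mean percentile of 68.8, with an age change of 0.10 (limma adjusted p = 0.774).

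**Figure D3:**
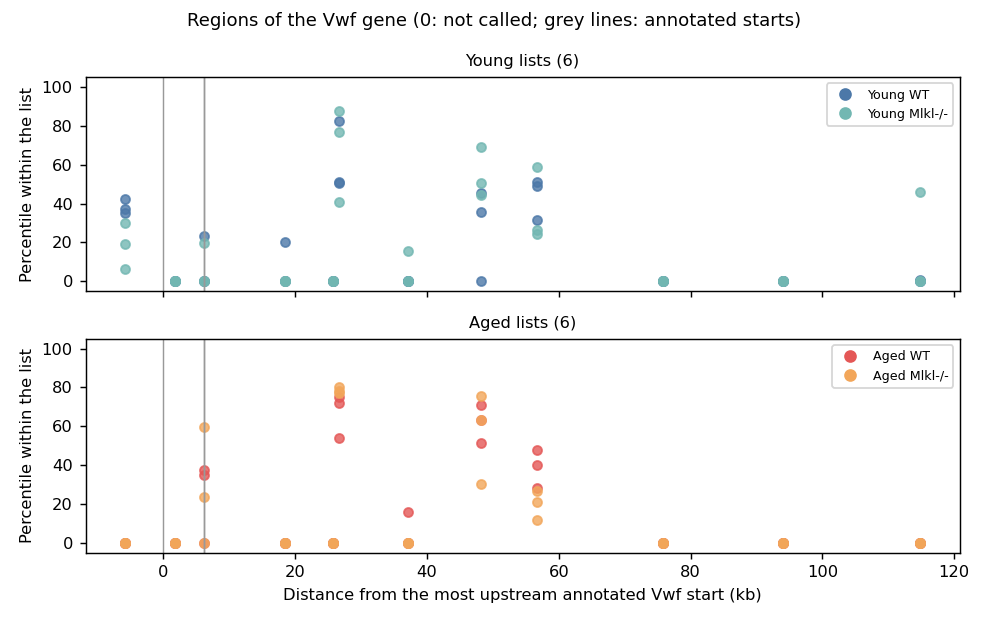
Percentiles of the 12 Vwf regions in the 6 young lists (top) and 6 aged lists (bottom) against distance from the most upstream annotated start, with 0 for a region not called and grey lines at annotated starts. The region 5.80 kb upstream is called in all 6 young lists and no aged list, whereas the promoter beside the second grey line is called in 2 young and 4 aged lists.

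The second region that passed is the intronic region of P2ry12. It was called in all 12 lists, at 89.0, 86.4 and 98.0 in Young WT, 91.4, 88.8 and 82.1 in Young Mlkl-/-, 84.3, 56.6 and 67.8 in Aged WT, and 65.2, 41.1 and 73.3 in Aged Mlkl-/-. The aged lists were lower except for 1 Aged WT list that overlapped with the young ones. The change was -0.69 (SE 0.15, limma adjusted p = 0.00967), which was -0.72 for the WT libraries and -0.67 for those without Mlkl. This call lay close to the threshold and held in 2 of the 12 refits that left out 1 library, those without Young WT replicate 2 or Aged WT replicate 1. It was also lost, at adjusted p of 0.0105 to 0.0189, with scores of at least 5, windows of 100 bp, percentiles of ranks and the replicate block (limma). It was lost further with list length (-0.77, limma adjusted p = 0.0610) and with Y-gene summits as a covariate (-0.70, adjusted p = 0.0569), and in the 9 libraries with the tag (-0.68, adjusted p = 0.0877). In sorted HSCs measured in bulk, fewer cells with an open region and less open chromatin per cell cannot be told apart.

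The next 8 regions by their p for age did not pass 0.01 and are given as values. A region 63.7 kb from the Zfpm1 start, in an intron of the overlapping gene Gm20388, stood at 51.8, 32.0 and 49.2 in Young WT and at 0, 43.6 and 5.23 in Young Mlkl-/-, and was called in no aged list (-1.0, limma adjusted p = 0.0139). The Gfi1b promoter stood at 38.6, 22.9 and 25.3 in Young WT and 29.1, 0 and 22.7 in Young Mlkl-/-, and was likewise called in no aged list (-0.91, limma adjusted p = 0.0224). Each was also uncalled in 1 Young Mlkl-/- list, where the age groups overlap. As for the Vwf upstream region, the aged values of both are the shared low scores of regions not called. In the uncut lists the Gfi1b promoter was present in 6 young and 4 aged lists, and the Zfpm1 region in 6 young and 5 aged lists. The Zfpm1 region passed without Young Mlkl-/- replicate 1 (limma adjusted p = 0.00488) and the Gfi1b promoter without Young Mlkl-/- replicate 2 (adjusted p = 0.00479), the lists in which each was uncalled.

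The Nbeal2 promoter was called in every list, at 84.1 to 94.9 in the young lists (median 91.0) and 67.0 to 85.4 in the aged lists (median 75.7), with a change of -0.48 (limma adjusted p = 0.0228). The Cavin2 promoter showed the opposite order. It stood at 63.4 to 77.2 in young lists (median 70.9) and 81.2 to 90.2 in aged lists (median 87.9), which did not overlap, with a change of 0.42 (limma adjusted p = 0.0240). A Bin2 intronic region 3.00 kb inside the gene was at 7.34 to 54.2 in young lists and was called in 1 aged list, at 37.9 (-0.95, limma adjusted p = 0.0248). The Bin2 change was -0.53 with list length as a covariate (limma adjusted p = 0.411), and it passed without Aged Mlkl-/- replicate 2 (adjusted p = 0.00703). It was present in 6 young and 5 aged uncut lists.

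Tbxas1 held a pair of intronic regions with opposite values. The one 73.2 kb inside the gene was at 0 to 47.2 in young lists (median 34.7) and 58.6 to 77.5 in aged lists (median 64.8), without overlap (0.67, limma adjusted p = 0.0281), and in the uncut lists it passed (adjusted p = 0.00979). With list length as a covariate the change was 0.27 (limma adjusted p = 0.558). The one 55.1 kb inside was at 35.5 to 69.1 in young lists (median 55.0) and 0 to 59.5 in aged lists (median 8.27), with a change of -0.86 (limma adjusted p = 0.0462), which was -0.54 in the uncut lists and -0.53 in the 9 libraries with the tag. The last of the 10, a Plek intronic region 3.61 kb inside the gene, was at 55.8 to 81.1 in young lists (median 72.1) and 37.6 to 54.0 in aged lists (median 50), also without overlap (-0.39, limma adjusted p = 0.0513). Thus 8 of these 10 regions, which were picked by p, were lower and 2 higher at 18 months. At an unadjusted limma p of 0.05, 12 of the 106 regions were lower and 4 higher. Over all tested regions, 4075 were lower and 4315 higher at that p. The balance of directions was not tested.

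**Figure D4:**
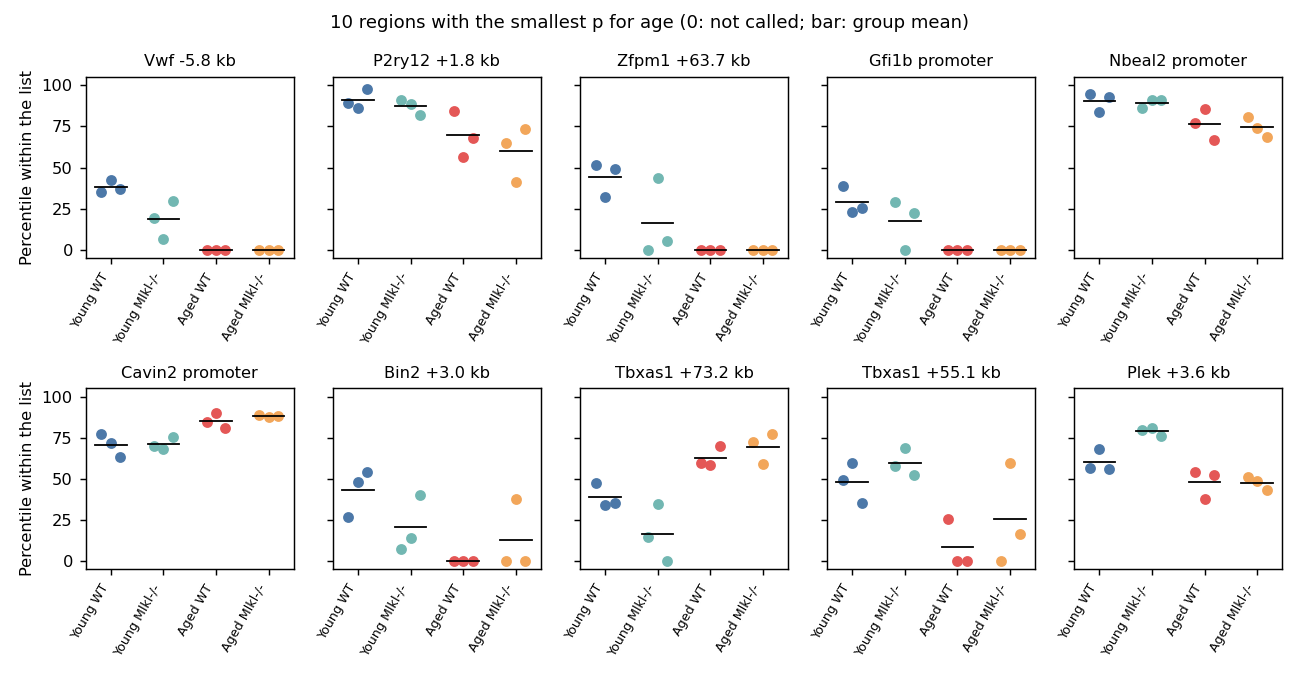
Percentile in each library (points, 3 per group) and group mean (bar) for the 10 regions of the 35 genes with the smallest p for age, with 0 for a region not called. Values in aged lists lie lower in 8 panels and higher for the Cavin2 promoter and the Tbxas1 region 73.2 kb inside the gene.

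Over all 106 regions the median age change was -0.09, and 64 changes (60.4%) were negative. Over all 37884 regions the median was -0.0073 and 50.9% were negative. Own promoters had a median of -0.11, compared with -0.04 over all promoter regions, and distal regions -0.13, compared with 0.03 over all distal regions. By role, the integrin group had the largest share of negative changes, 19 of 24 with a median of -0.17, and among these all 4 tested Itga2b regions were negative, from -0.49 to -0.19, the first of them at the start of Fam171a2. No region of the integrin group passed the test. Transcription factor genes had 8 of 13 negative (median -0.16), eicosanoid enzymes 7 of 13 (-0.12), soluble agonist receptors 5 of 8 (-0.08) and the cytoskeletal group 13 of 21 (-0.03). The GPIb-IX-V group had 4 of 8 negative (median -0.0012), granule and adhesive proteins 8 of 17 (0.04), and both Clec1b regions were positive (0.23 and 0.27).

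**Figure D5:**
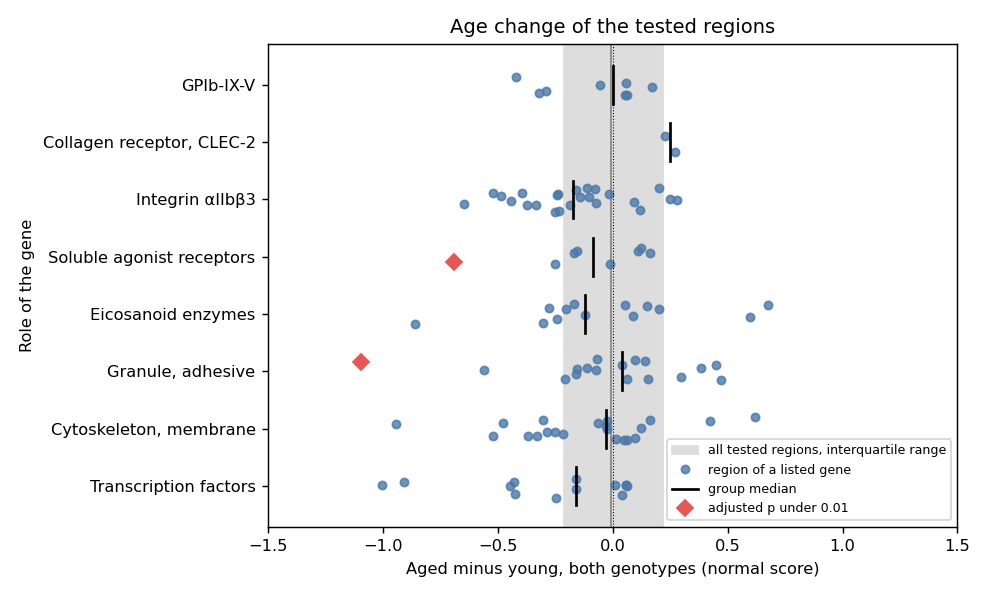
Age change over both genotypes, aged minus young in normal scores, for the 106 tested regions by role of the gene, with the group median (bar) and, in grey, the interquartile range over all tested regions. The integrin median lies at -0.17, and the red diamonds mark the Vwf region at -1.09 and the P2ry12 region at -0.69.

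Within each genotype no region of the 35 genes passed. The test of age in WT called 0 of the 106 regions, compared with 0.195% of all, and the test of age in Mlkl-/- called 0, compared with 0.150% (limma). At an unadjusted p of 0.05, 20 of the 106 were reached in WT (18.9%, compared with 14.5% of all), 17 of them lower at 18 months, and 12 in Mlkl-/- (11.3%, compared with 14.4%), 8 of them lower. Directions among all regions at this p were not counted within a genotype, so the 17 and the 8 have no general share beside them. The smallest adjusted p among the 106 was 0.0399 in WT, for the Vwf upstream region, and 0.0550 in Mlkl-/-, for the Tbxas1 region 73.2 kb inside the gene (both limma). The median change was -0.09 in WT and -0.06 in Mlkl-/-.

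Loss of Mlkl was compared at each age and over both ages. None of the 106 regions passed at 3 months (0% of all regions did), at 18 months (0%) or over both ages (0%), and none passed for the difference in age change between genotypes (0%). At an unadjusted limma p of 0.05, 11 regions were reached at 3 months (10.4%, compared with 5.34% of all), 6 at 18 months (5.66%, compared with 5.09%), 8 over both ages (7.55%, compared with 6.21%) and 6 for the difference in age change (5.66%, compared with 4.75%). At 3 months, 5 of the 11 were higher and 6 lower in Mlkl-/-, and for the difference in age change all 6 were positive. The directions among all regions at this p were not counted, so these have no general share beside them. The lowest adjusted p among the 106 was 0.581, 0.713, 0.766 and 0.965 in the same order. The median SE of a genotype difference at 1 age was 0.30.

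The regions with the smallest p for genotype are given as values. A region at the start of F5, downstream of Selp, was called at 16.1, 17.7 and 52.8 in Young WT and at 10.6 and 41.5 in 2 Aged WT lists, and in no Mlkl-/- list (-0.92 over both ages, SE 0.24, limma adjusted p = 0.766). F5 encodes coagulation factor V, and in the uncut lists this region was present in 10 of 12. A region within Tbxas1 at a start of 1700025N23Rik was called in 5 of 6 WT lists, at 4.51 to 29.6, and in no Mlkl-/- list (-0.79, SE 0.22, limma adjusted p = 0.766). Of the uncut lists, 5 WT and 3 Mlkl-/- lists held it. A Zfpm1 intronic region 42.1 kb inside the gene was called in 5 WT lists, at 0.816 to 35.5, and in 1 Mlkl-/- list, at 9.63 (-0.68, SE 0.26, limma adjusted p = 0.766), and in the uncut lists it was present in 11 of 12. All 3 were weak regions called in 5 or 6 of the 12 equal-length lists.

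At 3 months the other values were for Gp5 and Plek. A region in the coding exon of Gp5, the gene of GPIb-IX-V subunit V, was called at 4.48, 2.71 and 23.1 in Young WT and in no Young Mlkl-/- list (-0.89, SE 0.29, limma adjusted p = 0.652). In aged lists it was called once, at 2.79 in Mlkl-/-, and the difference in age change did not pass (1.13, SE 0.41, limma adjusted p = 0.965). In the uncut lists the Gp5 region was present in 5 of 6 young and 6 of 6 aged lists. A Plek intronic region 7.53 kb inside the gene was at 81.6, 85.7 and 87.8 in Young WT and 69.8, 69.9 and 45.2 in Young Mlkl-/- (-0.53, SE 0.18, limma adjusted p = 0.699). At 18 months it was at 76.8, 46.5 and 76.6 in WT and 72.6, 68.4 and 81.2 in Mlkl-/-, and these overlapped (0.11). A region in a UTR of P2ry13, within 10 kb of P2ry12, was called in no Aged WT list and at 11.3, 32.9 and 17.1 in Aged Mlkl-/- (0.97, SE 0.36, limma adjusted p = 0.870). It was called in 2 Young WT lists, at 4.09 and 21.6, and in 1 Young Mlkl-/- list, at 33.3.

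Another list of 42 genes of megakaryocyte and platelet function, among them Gata1, Fli1, Itga2 and Myh9, had 270 regions, of which 152 were tested. The promoter was called in all 12 lists for 23 of the 42 genes (54.8%, compared with 42.2% of all protein-coding genes). It was called in none for Gata1, F13a1, Mpig6b and Cd36. Over all tested regions, 2.71% passed for age over both genotypes. Of the 152 regions here, 1 passed as higher and 1 as lower at 18 months (limma). The lower was a region 67.6 kb from the start of Prkcq, the protein kinase C-θ gene (-0.75, limma adjusted p = 0.00569), and the higher a region 41.7 kb from the start of Ap3b1, which encodes a subunit of the AP-3 complex of granule formation (0.61, limma adjusted p = 0.00717). The median age change over the 152 was -0.06, with 55.9% negative, and no genotype comparison passed.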

How the data were processed

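ATAC-seq had been done on sorted HSCs, with 3 libraries for each of 4 groups. Per the labels and the study's methods, reads were mapped to mm10 with Bowtie2 2.5.3 and summits were called in each library with MACS2 2.2.7.1. The authors deposited 1 list of summits per library, whose score is a −log10 q-value. The lowest score was 2.00 in the lists, and summits with a score of at least 3 were used here. Read counts and depth were not given in the sources used here. Windows of 250 bp each side of all summits were merged into regions, and lists were cut to equal length, with ties broken at random with a fixed seed. Genes and starts came from GENCODE vM21 basic, and sequences from RefSeq GRCm38.p6, the same build. Normal scores of ranks over regions called in at least 3 lists were fitted with limma 3.58.1 in R 4.3.3, with 4 group means, Benjamini-Hochberg adjustment and a threshold of 0.01, and the procedure was tested on simulated lists. The study's methods call the libraries of a group biological replicates. Both the 35 genes and the other lists were chosen with earlier results of these data known.

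The regions described singly were those past the threshold (at most 10 per contrast), the 10 with the smallest unadjusted p for age over both genotypes, the 3 with the smallest p for each genotype contrast and for the difference in age change, the best promoter or, without one, the best region of each gene, and the 5 strongest distal regions. Regions outside this rule were named after their values were seen. The alternatives are given with their effect in the closing section.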

Additional observations from a re-analysis of the deposited data

How the results depend on the processing

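The number of regions of the 35 genes that passed for age over both genotypes was 2, and it was 0 with scores of at least 5, with list length as a covariate, with Y-gene summits as a covariate and in the 9 libraries whose list names share a tag. It was 1 with windows of 100 bp, with percentiles in place of normal scores and with the gene body alone, 9 at an adjusted p of 0.05 and 6 with 50 kb each side. Leaving out 1 library at a time gave 1 to 2. With the replicate number as a block it was 1. Correlations of deviations were -0.30 to 0.13 over 18 pairs of libraries with the same number and -0.18 to 0.31 over 36 other pairs. Of the 12 libraries, 4 were closest to their own number. These values cannot settle whether the numbers pair the samples. Over all regions, 1028 passed at 0.01, compared with 59 with list length, 329 with Y-gene summits as a covariate and 201 in the 9 libraries. For age in WT the count was 0, and it was 1 at an adjusted p of 0.05 and 1 with 50 kb each side. The counts for age in Mlkl-/-, the 3 genotype comparisons and the difference in age change were 0 under every alternative run. The median age change (-0.09) was -0.12 to -0.05 without single libraries and stayed negative under all alternatives run. The median genotype change (0.04) was 0.0089 to 0.05 without single libraries, 0.10 with the gene body alone and -0.0056 with 50 kb each side. Of 610 values of single regions under alternatives, 568 kept their direction and side of the threshold, 21 no longer passed, 11 newly passed and 10 turned in direction. Most of the 11 newly passed only at the adjusted p of 0.05, where the fit is the same and the threshold looser. All 21 were of the Vwf upstream and P2ry12 intronic regions, with 26 alternatives each. The other values had not passed at first and so could not stop passing. The Vwf call was kept in 10 of 14 settings and in all 12 refits without 1 library. The P2ry12 call was kept in 7 of 14 and in 2 of 12. For both regions, the settings that kept the call include fits made separately for each contrast and the adjusted p of 0.05. Separate fits repeat the main fit for age over both genotypes, and the adjusted p of 0.05 only loosens the threshold. Neither could lose a call, and a second seed for ties left the values almost unchanged. The 10 that turned were age changes near 0 of 3 regions, none past the threshold. The P2ry12 region 11.6 kb from the start (-0.011) was 0.21 in the 9 libraries and -0.30 to 0.17 without single libraries, with positive values of 0.04, 0.09, 0.17 and 0.02. The Zfpm1 region at 42.1 kb (0.04) was -0.015 with Y-gene summits as a covariate and -0.10 to 0.23 without single libraries, with negative values of -0.03, -0.08 and -0.10. The Tbxas1 region at the start of 1700025N23Rik (0.20) was -0.019 with Y-gene summits as a covariate. With a promoter limit of 500 bp, 24 in place of 27 own promoters were tested, with a median age change of -0.07.

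Ranks within a list carry no absolute level, a region that is not called is only below the limit of its list, and the lists hold no read counts. With 3 libraries per group, list length, sex and age cannot be fully told apart.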

Other observations

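Around the 35 genes, 1702 summits of the 12 lists were used, with scores from 3.01, and 44 summits in the same gene windows fell under the limit, the highest at 2.96. The regions nearest to the 10 kb limit lay 9.82 kb from Gp1bb and 9.61 kb from Gp9 inside it, and 10.14 kb from Ppbp and 10.43 kb from Rap1b outside it. Of all regions of these genes, 48 were called in all 12 equal-length lists and 41 in none, being present only below the equal-length limit.

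For transcription factor genes, 10, 10 and 11 of 21 regions were called in Young WT, 11, 11 and 11 in Young Mlkl-/-, 8, 7 and 9 in Aged WT and 8, 10 and 7 in Aged Mlkl-/-. Young and aged lists touched at 10. Over all genes, equal-length lists held means of 29130, 29603, 29508 and 30248 called regions in the same order of groups. For the integrin group, 17, 21 and 21 of 33 were called in Young WT, 20, 22 and 19 in Young Mlkl-/-, 14, 16 and 19 in Aged WT and 19, 20 and 18 in Aged Mlkl-/-. For the granule and adhesive group, the group means were 14.3, 14.3, 13.3 and 13.3 of 34 regions. Young and aged means differed by less than the SD between libraries of either Mlkl-/- group (1.53, n = 3 each). They differed by more than the SD of either WT group (0.58, n = 3 each). The group means were 18.3, 18.7, 17.3 and 19.3 of 36 regions for the cytoskeletal group, 11.3, 10, 10 and 10 of 27 for eicosanoid enzymes and 7, 6.67, 6 and 6.33 of 12 for the GPIb-IX-V complex. They were 6.67, 6.67, 5.67 and 6.33 of 11 for soluble agonist receptors, and 2, 2, 2 and 2.33 of 4 for Gp6 and Clec1b. None of these counts was tested.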
